A study of Homo sapiens with 2 samples.

Results

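Chromosome 22 carried 736 PAX5 peaks of the 21361 in the deposited peak table, or 3.45% of the list. The members are all rows of that table on this chromosome, with no further filter, and no measured value chose a single row. The chromosome itself had been singled out because it holds the highest peak density and the widest peak of the list, so these facts are descriptions here and no test of them is given. Binding was measured by ChIP-seq, in which DNA bound by the factor is enriched with an antibody and sequenced. The cells were NALM6, a human leukaemia line of B-cell precursor type. The ChIP group is 1 sample of untreated cells, made with an Abcam antibody to PAX5. The control group is 1 input sample without antibody, also labelled NALM6, whose title carries the unexplained name RXL. Both were cultured for 4 days in RPMI free of phenol red with 10% serum and 2 mM glutamine. The header of the table counts 46190180 ChIP tags and 25416858 control tags. Both alignments are pools, of how many libraries the labels and header do not say, so no spread between replicates exists. The intervals below stay within 1 comparison. Those of counts cover counting error, and those of medians and shares the spread between peaks taken as independent. None of them measures variation between samples.

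The transcription factor PAX5 binds DNA through a paired domain and commits progenitors to the B lineage, by activating B-cell genes and repressing those of other lineages. On chromosome 22 lies the lambda immunoglobulin light chain locus, where variable segments towards the centromere are joined to a joining and constant segment towards the telomere. Precursor B cells as a rule have not completed this joining, and the heavy chain pairs in them with a surrogate light chain. The short arm of chromosome 22, an acrocentric chromosome, consists largely of repeats, so that mapped sites come from the long arm. Positions below are on hg19 and count from 1. Gene models and sequence of that build were not used here, so no peak is assigned to a gene and no sequence is shown. The only locus named is the lambda interval, from 22.38 to 23.27 Mb.

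At the median chromosome 22 site, 61 extended ChIP reads lay over the summit (95% interval 59 to 63, from the order statistics of the 736 peaks). The control background at the same point was 8.0 reads (8.0 to 8.1), which is 3.78 times the genome mean of 2.12 control reads. The deposited fold enrichment, the depth-scaled pileup over this background with 1 added to each, had a median of 4.0 (3.91 to 4.15). Most sites on the chromosome were thus moderately enriched. The caller takes the largest of several local estimates and the genome mean as background, so that it cannot fall below that mean, and the same ratio of 3.78 was found over the whole list. Reads ranged from 23 to 272 and folds from 2.06 to 15.1. Over the whole list the medians were 61 reads, 8.0 control reads and a fold of 3.89, so the typical site of chromosome 22 differed little in strength. Pileup cannot tell a site bound in more cells from a site recovered more efficiently in each cell.

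Sites with a fold of at least 5 were about as frequent as in the whole list, and those with a fold of at least 10 were more frequent. A fold of at least 5 was reached by 198 sites, or 26.9% (Wilson interval 23.8 to 30.2), against 25.0% of the whole list. A fold of at least 10 was reached by 26 sites, or 3.53% (2.42 to 5.13), against 1.72% of the whole list. On chromosome 19 this share was 2.94% (2.12 to 4.07) and on chromosome 17 it was 1.68% (1.12 to 2.5). The interval of chromosome 22 therefore overlapped that of chromosome 19 and touched that of chromosome 17, and neighbouring peaks are not independent, so the intervals may be too narrow. Without the lambda interval 24 of 693 sites had such a fold (3.46%). Reads and control background rose together over the 736 sites (Spearman's rho 0.63), as they did over the list (0.62), and a site over a high background needs more reads to be called.

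**Figure D1:**
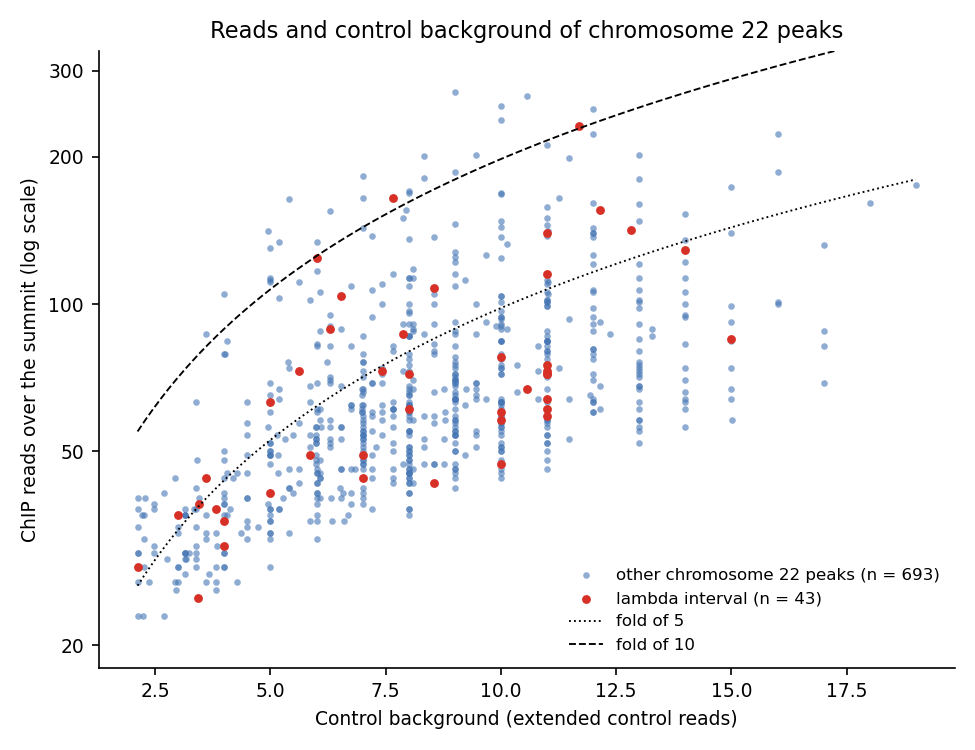
Each point is 1 chromosome 22 peak, with its control background in extended reads on the horizontal axis and its ChIP reads over the summit on the vertical log axis. Red points are the 43 peaks of the lambda interval, blue points the other 693. The dotted and dashed lines mark folds of 5 and 10, and 26 peaks lie at or above the dashed line.

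Peaks were spread over the whole long arm, in alternating dense and sparse stretches. The first began at 17291916 and the last ended at 51111156. None of the 35 bins of 1 Mb between them was empty, and the median bin held 19 peaks (quartiles 10.5 and 29.5). Counts ran from 2 to 46, with a variance 8.03 times their mean of 21.0, where counts scattered evenly at random would have a ratio near 1. The 9 bins with 34 or more peaks held 362 peaks (49.2%), and the 9 bins with 10 or fewer held 62 (8.42%).

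The fullest bins formed 1 block around the lambda interval and several separate summits further along. The bin from 23000001 held 46 peaks (exact Poisson interval 33.7 to 61.4) and its neighbour from 22000001 held 44 (32.0 to 59.1). Together with the 38 of the bin from 24000001, these 3 Mb contained 128 peaks, 17.4% of the chromosome, of which 43 lay in the lambda interval and 85 did not. Without the interval the first 2 bins held 32 and 15 peaks, and were no longer the fullest. Away from it, the bins from 42000001 and 50000001 held 42 each (30.3 to 56.8), and those from 37000001 and 46000001 held 41 each (29.4 to 55.6). All 6 intervals overlapped, so the order of the fullest bins was not resolved. None of them was extreme in the genome: 22 autosomal bins on other chromosomes held at least 46 peaks.

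Site strength did not follow site number. Across the 35 bins, which share the same 2 libraries, the number of peaks was nearly unrelated to the median fold (rho -0.1) and to the median reads (rho 0.03). It was weakly related to the median control background (rho 0.25). Among the 28 bins with 10 or more peaks, median folds lay between 2.98 and 6.4. The lowest belonged to the bin from 41000001, with 11 peaks, and the highest to the bin from 44000001, with 14. In the latter the median site had 72 reads over a control background of only 5.7, and 9 of its 14 sites had a fold of at least 5.

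Of the 9 bins with 10 or fewer peaks, 2 had low control background under their peaks. The bin from 28000001 held 2 peaks (0.242 to 7.22), with a median control background of 3.15 reads, and the bin from 34000001 held 5 (1.62 to 11.7), with a background of 3.0. Their median summits carried 38.5 and 31 ChIP reads. The longest stretch without a peak ran for 878 kb from 34632790 to 35510363, followed by 776 kb from 32340961 and 752 kb from 47561758. The other 7 sparse bins had medians between 6.42 control reads in the bin from 33000001 and 9.23 in the bin from 32000001. Among them is the last bin, with 3 peaks and a median of 7.0. It holds the last peak of the chromosome, so its count need not stand for a full Mb. The control level is known only under called peaks, not across the empty stretches. The part of input level and of mappable sequence in these gaps was not tested.

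**Figure D2:**
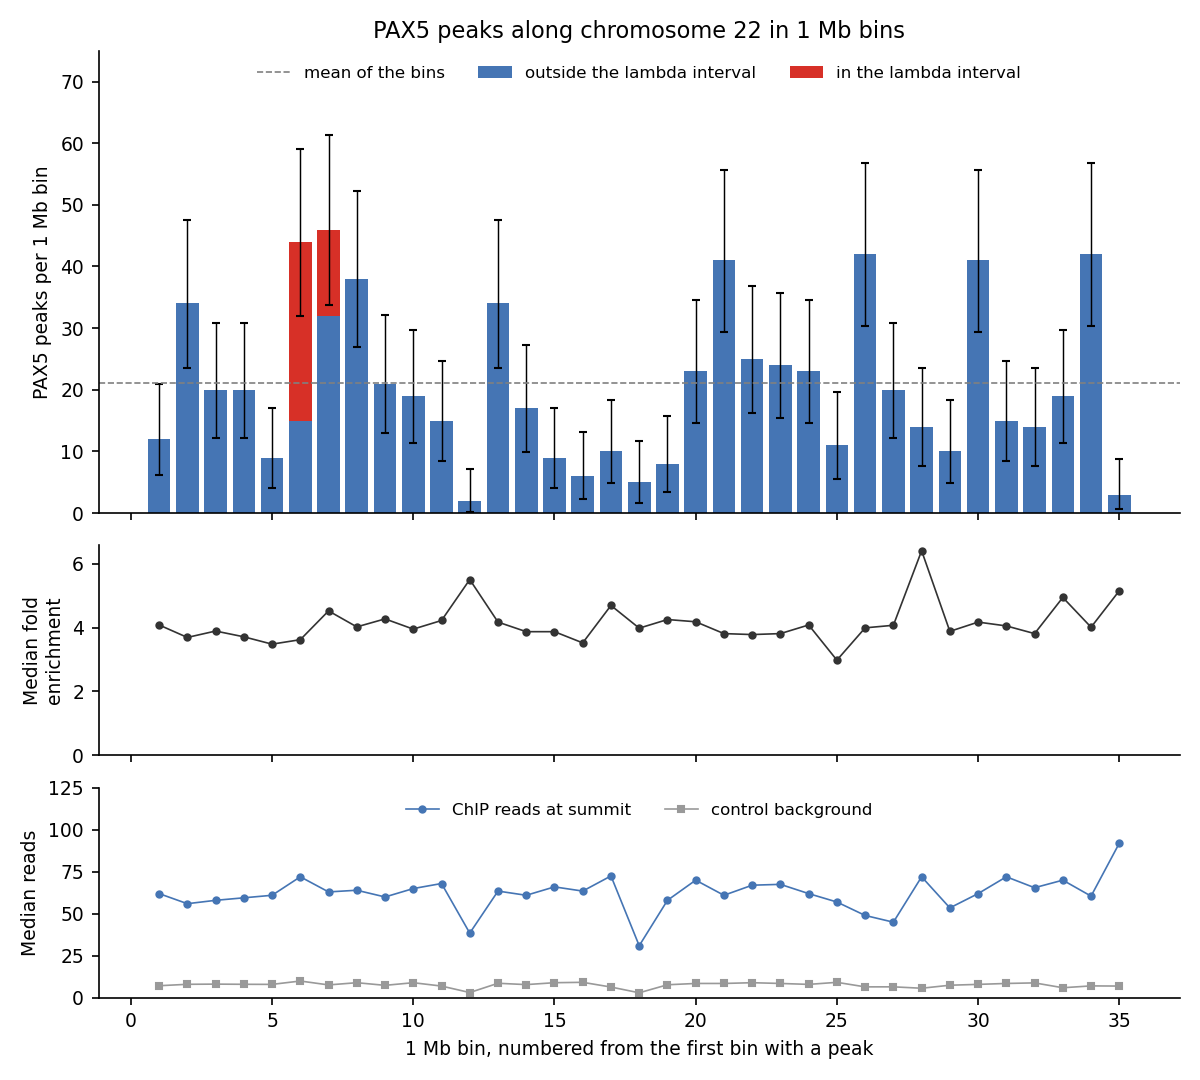
The upper panel shows the number of PAX5 peaks in each of 35 bins of 1 Mb, numbered from the first bin with a peak, with exact Poisson 95% intervals, the lambda interval in red and the mean of 21.0 as a dashed line. The lower panels show the median fold and, in reads, the median ChIP summit and control background of each bin. Bins 6 and 7 are the fullest and bin 28 has the highest median fold, 6.4.

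The rank of chromosome 22 by density depended on how its length was counted. From first to last summit it spans 33.8 Mb, with a density of 21.8 peaks per Mb (20.2 to 23.4) against 20.2 (19.1 to 21.4) on chromosome 19. Its peaks covered 356.4 kb or 1.05% of that span, against 0.945% on chromosome 19 and 0.328% over the other autosomes. Counted per 1 Mb bin that holds a peak, chromosome 22 had 21.0 peaks (19.5 to 22.6) and chromosome 19 had 22 (20.8 to 23.3), which reverses the order found over spans. Chromosome 19 has a peak in 54 of 60 bins, so that its span includes empty stretches. The bins at the ends of a chromosome count here as whole bins. Both pairs of intervals overlapped. Sites with a fold of at least 10 numbered 0.769 per Mb on chromosome 22, 0.595 on chromosome 19 and 0.284 on chromosome 17. Without the lambda interval, chromosome 22 had 21.0 peaks per Mb of span (19.5 to 22.7).

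With gaps of at most 10 kb, sites stood in company more often than alone, which did not hold with gaps of at most 5 kb (45.2%). A run is defined here as summits of which each lies within 10 kb of the next. There were 142 runs, with 452 of the 736 peaks (61.4%, 57.8 to 64.9), against 51.9% of the whole list. The share was 64.6% on chromosome 19 and 63.0% on chromosome 17, the other dense chromosomes. On chromosome 20, with 12.5 peaks per Mb, it was 50.1%, and on chromosome 21, with 9.11 per Mb, it was 61.2%. A higher density alone brings summits closer, and its part in the share of chromosome 22 was not tested. Of the runs, 77 were pairs, 17 held 3 peaks, 26 held 4 and 22 held 5 or more. These 22 contained 143 peaks, 19.4% of the chromosome, against 10.9% of the whole list and 20.3% on chromosome 19. Neighbouring summits were 15.2 kb apart at the median (quartiles 3.85 and 46.2 kb), and 27.5 kb on the other autosomes.

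Membership in a run did not go with strength. Sites in runs had a median of 62 reads (59 to 65) and a fold of 3.97 (3.8 to 4.17), and the 284 single sites had 60 reads (56 to 63) and a fold of 4.06 (3.91 to 4.22). A fold of at least 10 was found at 17 of the 452 sites in runs (3.76%, 2.36 to 5.94) and at 9 of the 284 single ones (3.17%, 1.68 to 5.91). In 30 of the 142 runs (21.1%) the strongest summit had at least 2 times the reads of the next, compared with 17.7% of 3770 runs on the other autosomes.

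**Figure D3:**
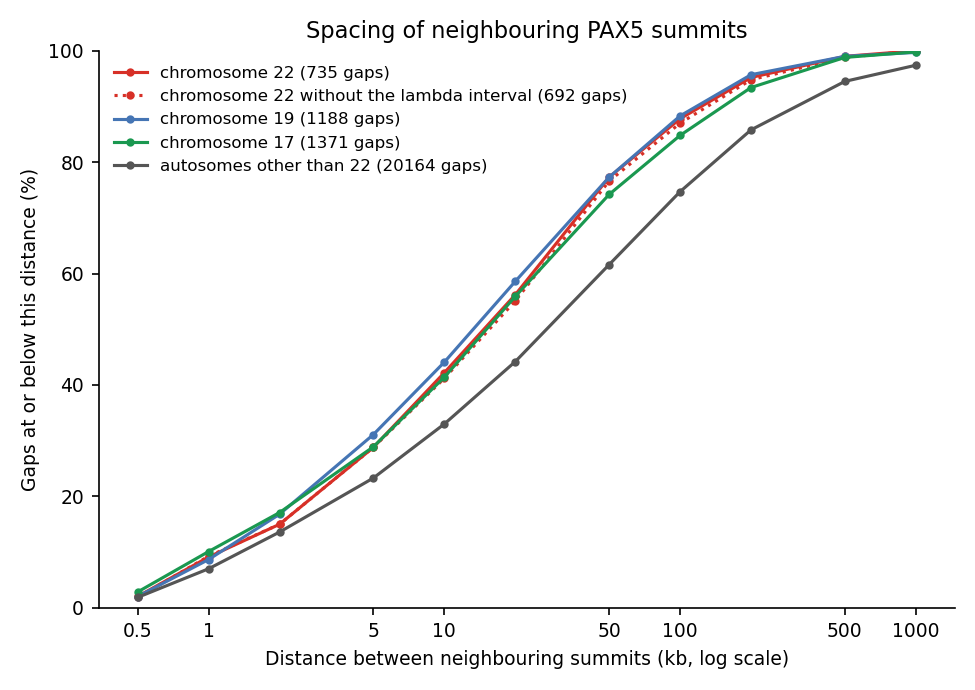
Each line gives, for the distance between neighbouring summits on the horizontal log axis (kb), the percentage of gaps at or below it. Chromosomes 22, 19 and 17 run close together, with 42.2%, 44.1% and 41.4% of gaps at or below 10 kb, above the other autosomes at 33.0%. Leaving out the lambda interval gives 41.2% on chromosome 22.

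The run with most peaks was built mainly of sites of low fold. It held 15 peaks over 38.3 kb from 29187350 to 29225692, and only 1 run on the other autosomes had as many, with 20 peaks. Its summits had between 36 and 175 reads, with a median of 60, near the 61 of the chromosome. Its folds lay between 2.62 and 6.0, with a median of 2.97. Only 1 of the 15 reached a fold of 5. The control was high there, with a median background of 11 reads and a highest of 19, the highest under any peak of the chromosome. The second run, 11 peaks over 33.3 kb from 42315251 to 42348562, had a median of 58 reads over a median background of 9.0. Its median fold was 3.72, against 3.97 for all sites in runs, and its highest fold 7.43.

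Another kind of run had 1 dominant summit. From 24093199 to 24129879, 8 peaks lay over 36.7 kb, of which 1 had 254 reads and a fold of 12.8 while the next had 64 reads, a ratio of 3.97. None of the other 7 reached a fold of 5. By contrast, the 8 peaks over 26.8 kb from 50730843 to 50757652 had between 52 and 128 reads, and the highest exceeded the next, of 109, by a ratio of only 1.17. Their folds ran from 3.68 to 11.8, with a median of 5.28, and 4 of them were at least 5.

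A compact run held the widest peak. The 8 peaks from 48970775 to 48985976 covered 78.9% of their 15.2 kb, where the other 4 of the 5 runs with most peaks were covered to between 10.6% and 23%. The widest peak of the chromosome, from 48975099 to 48981562, measured 6464 bp with 113 reads at its summit (93 to 136), a control background of 8.10 reads and a fold of 6.94. Its summit lay 2260 bp from its start. A peak of 2307 bp with 84 reads (fold 4.29) ended 845 bp before it. After it came 4 narrow peaks of 47 to 51 reads, and then a peak from 48984737 to 48985976 with 201 reads and a fold of 12.0, the strongest of the run by both measures. The widest stretch of enrichment and the strongest summit of this run were thus separate peaks.

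**Figure D4:**
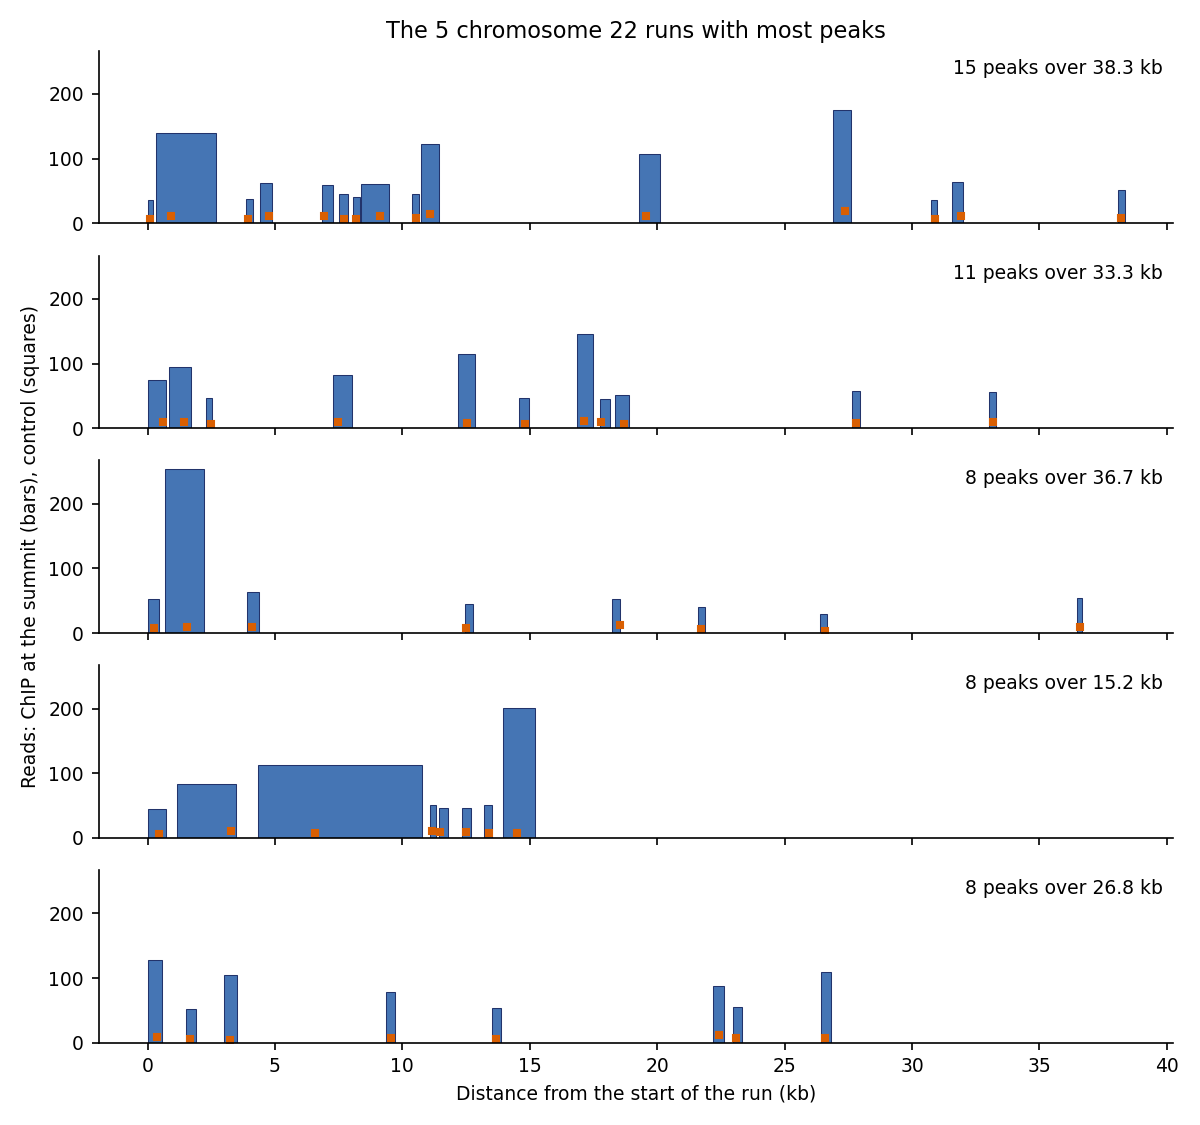
The 5 runs with most peaks are drawn to scale, with distance from the start of the run in kb, 1 bar per peak as wide as the peak and as high as its summit in ChIP reads, and orange squares for the control background in reads. A bar does not show the profile within a peak. The first run has 15 peaks of modest height, the third a single summit of 254 reads, and the fourth is nearly continuous with its 6464 bp peak.

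Most peaks were narrow. The median width was 390 bp (375 to 411; quartiles 294 and 566), and that of the whole list was 383 bp. The narrowest, 12 in number, had exactly the 225 bp of an extended read. A width of at least 1000 bp was reached by 30 peaks, or 4.08% (2.87 to 5.76), against 3.22% of the whole list. The peaks on either side of this limit measured 984 and 1003 bp. The 30 wide peaks made up 14.6% of all peak bases on the chromosome. Width and reads rose together over the 736 sites (rho 0.64).

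Wide peaks were higher and less often alone. They had a median of 130 reads (106 to 150) over a control background of 9.72 (8.32 to 11), and the 706 narrower peaks had 60 reads (58 to 63) over 8.0 (7.88 to 8.0). Of the 30 wide peaks, 7 reached a fold of 10 (23.3%, 11.8 to 40.9), and of the narrower ones 19 (2.69%, 1.73 to 4.16). On the other autosomes these shares were 10.5% and 1.34%. In runs stood 26 of the 30 (86.7%, 70.3 to 94.7) and 60.3% (56.7 to 63.9) of the narrower peaks. On the other autosomes the shares in runs were 73.1% and 50.9%. How far width and strength depend on each other through the calling was not tested.

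The widest peaks were of unequal strength. The second, 3636 bp from 23263504 to 23267139, had 108 reads and a fold of 6.33. The third, 2697 bp from 23921030 to 23923726, had 202 reads and a fold of 10.7, and the fourth, 2421 bp from 20021043 to 20023463, had 251 reads and a fold of 10.7. These 2 were both wide and strong. The peak of 2362 bp from 29187681 to 29190042 is the second peak of the run of 15, with 140 reads and a fold of 6.0. The peak of 2191 bp from 31741644 to 31743834 had only 66 reads and a fold of 3.73. Those of 2234 bp from 50628395, 1764 bp from 23248847 and 1676 bp from 50907777 had folds of 12.8, 9.89 and 6.13. Of the 100 widest peaks of the whole list, 10 were on chromosome 22, which holds 3.45% of all peaks. The widest of them was a reason for choosing the chromosome, so this count is a description.

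The strongest site of the chromosome led by both measures. It was a single peak of 929 bp from 29563118 to 29564046, with its nearest neighbour 17.7 kb away. Its summit had 272 reads (241 to 306, exact Poisson) over 9.0 control reads, a fold of 15.1 (13.3 to 17, with the background taken as fixed). In the whole list it ranked 17 by reads and 34 by fold. The next sites by fold lay far from it and had fewer reads over a lower control. The peak from 44668829 to 44669349 had 164 reads over 5.4, a fold of 14.3 (12.2 to 16.6), and that from 50929150 to 50929808 had 141 reads over 4.95, a fold of 13.2 (11.1 to 15.6). The fold intervals of these 3 overlapped.

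The next by fold differed in reads and in control background. Some had many reads over a background above the chromosome's median of 8.0. The peak from 24093890 to 24095433 had 254 reads over 10.0 (fold 12.8), and that from 50628395 to 50630628 had 267 over 10.6 (fold 12.8). The peak from 18592929 to 18593662 had 238 reads over 10.0 (fold 12.0), and that from 48984737 to 48985976, named above, had 201 over 8.32. Others had fewer reads over a low background. These were the peaks from 49911897 to 49912526 with 134 reads over 5.18 (fold 12.1) and from 41999885 to 42000335 with 130 over 5.00 (fold 12.1). The peak from 33695489 to 33696104, with 183 reads over 7 (fold 12.7), lay between them. Of these 3, the first stood in a run of 5 and the other 2 were single sites.

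Ranking by reads brought in sites over higher control. Because of a tie at rank 10, the highest by reads are 11 sites, of which 4 were also among the 10 highest by fold. The others were the peak from 20021043 with 251 reads over 12.0, a peak from 22598345 to 22599640 in the lambda interval with 231 over 11.7, and a peak from 46886105 to 46887072 with 223 over 16.0 and a fold of only 7.28. A single peak from 48839902 to 48840556 also had 223 reads, over 12.0 (fold 9.52). The peak from 23277459 to 23278366 had 212 over 11 (fold 9.80), and the peak from 23921030 had 202 over 9.45. The site that ties with it, from 24830366 to 24831071, also had 202 reads, over 13.0 (fold 8.01). For 9 sites, the strongest included, the upper limit of the reads reached the lower limit of the strongest. These intervals alone do not settle their order.

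Sites of high fold lay in several parts of the arm, and many of them near its telomeric end. The 26 with a fold of at least 10 fell into 16 of the 35 bins, and no bin held more than 3. The folds on either side of the limit were 9.96 and 10.1, and 13 of the 26 lay below 11. Of the 26, 17 stood in 16 different runs and 9 were single sites. Of all 736 sites, 61.4% stood in runs. In the last 10 Mb before the last summit, a window chosen after the positions had been seen, lay 13 of the 26 and 231 of all 736 sites (31.4%). The same window held 6 of the 10 sites of highest fold. Of the 100 sites of highest fold in the whole list 4 were on chromosome 22, and of the 100 with most reads 6. Both counts are close to the 3.45% of all peaks that the chromosome holds.

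The lambda interval was densely occupied. It held 43 peaks in 890 kb, which are 5.84% of the chromosome's peaks on 2.63% of its span. That is 48.3 peaks per Mb (35.0 to 65.1), 2.3 times the density of the rest of the chromosome (exact interval of the ratio 1.65 to 3.13). Both intervals take peaks as independent. Counts of the 1 Mb bins had a variance 8.03 times their mean, so these intervals are likely too narrow. The 1 Mb before the interval held 17 peaks, and the 1 Mb after it held 50, a density near that within it. Summits just inside and outside the borders belonged to the same runs. The last peak before the interval ended 2.6 kb from its border, with 79 reads and a fold of 4.66, and the first inside it had 44 reads and a fold of 3.15. At the other border, the 3636 bp peak ended 2.9 kb inside, and a peak with 84 reads over 15.0 control reads (fold 2.95) began 0.6 kb outside. The next peaks outside, from 23273598 to 23274641 and from 23277459 to 23278366, had 156 and 212 reads and folds of 9.71 and 9.80.

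Sites of the interval were not stronger at the median than those elsewhere. Their median was 67 reads (58 to 75) against 61 (59 to 63) on the rest of the chromosome, their median fold 4.16 (3.5 to 5.36) against 4.0 (3.91 to 4.13), and their median control background 8.0 (6.53 to 10.6) against 8.0. A fold of at least 5 was reached by 17 of 43 (39.5%, 26.4 to 54.4) and by 181 of 693 elsewhere (26.1%, 23 to 29.5), with overlapping intervals. Within the interval alone, 36 of the 43 (83.7%) were in runs, against 59.7% of the other 693 counted by themselves. A higher density alone brings summits closer, and its part in this share was not tested. The peak of highest fold, from 22723596 to 22724011, had 165 reads over 7.65 control reads and a fold of 10.6. The peak with most reads, from 22598345 to 22599640, had 231 over 11.7 and a fold of 10.1. On both sides it was flanked by weaker peaks, of 59, 47 and 58 reads, and a further strong one from 22603156 to 22603785 had 156 reads and a fold of 6.60.

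A stretch without peaks divided the interval. No peak lay in 139 kb from 22777407 to 22915974, a split chosen after the positions had been seen. The 26 peaks on the centromeric side had a median control background of 10.3 reads (7.87 to 11), and the 17 on the telomeric side had 6.0 (3.6 to 8.0). Median reads were 73 (63 to 87) and 49 (38 to 64). The median folds were 4.04 (3.38 to 5.51) and 4.54 (3.5 to 5.48), with widely overlapping intervals. The intervals of reads and of background also overlapped at their ends. Such overlap does not decide whether both sides differ, and no difference is claimed for a split chosen afterwards. In the 1 Mb before and after the interval the median backgrounds were 9.0 and 8.66 reads. The telomeric group includes 2 of the 3 wide peaks of the interval, the 1764 bp peak from 23248847 to 23250610 with 124 reads over 6.0 (fold 9.89) and the 3636 bp peak. Copy number and segment rearrangement of the locus in these cells were not examined, and their part in these values was not tested.

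**Figure D5:**
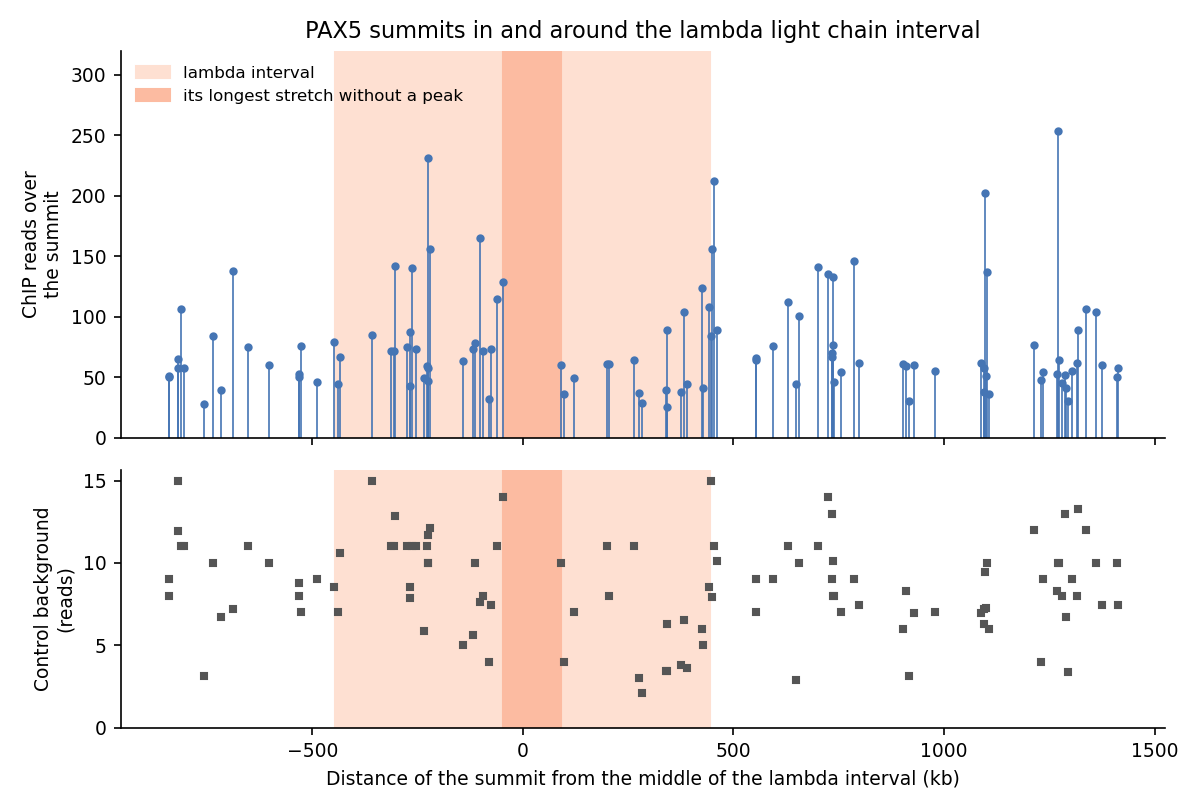
The upper panel shows ChIP reads over each summit and the lower panel the control background in reads, both against the distance from the middle of the lambda interval (shaded) in kb. The darker band is the 139 kb without a peak, to the right of which 17 peaks stand on a median background of 6.0 reads, compared with 10.3 for the 26 peaks to its left.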

How the data were processed

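The submitters' processing notes name BWA as aligner and hg19 as build. Peaks were called, per the file headers, with MACS2 2.1.1.20160309 on the pooled ChIP against the combined control, with 50 bp reads extended to 225 bp and a q threshold of 0.05. The deposited pileup signal is scaled by 0.5503 to the control's depth, the fold enrichment is a ratio deposited by the authors, and the −log10 p and q values were deposited with them. A cleaned list deposited by the authors, made by a step that no source used here gives, holds all 736 chromosome 22 peaks with the same borders.

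Pileup divided by the scale gave whole reads within 0.005 pileup units at 100% of peaks, and background was (pileup + 1) / fold − 1. Reads and background were recovered from simulated peaks. Intervals are 95%: exact Poisson for counts, Wilson for shares, order statistics for medians. With 1 sample a group, no test between samples was made. Named sites were the 10 highest by fold and by reads, the 10 widest, the 5 fullest bins with ties, the 5 runs with most peaks, the 3 highest of the lambda interval, and the first and last peak. Bins of extreme median and border sites were added after their values were seen. Members and lists were chosen with earlier results of these data known. Scripts ran in Python 3.11.15 with scipy 1.17.1, pandas 2.3.3, numpy 2.4.6 and, for figures, matplotlib 3.10.9.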

Additional observations from a re-analysis of the deposited data

How the results depend on the processing

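Keeping only peaks with a −log10 q of at least 10, which by construction removes weak sites, left 280 peaks and 8.38 per Mb on chromosome 22. The fullest bin then held 21 peaks and the lambda interval 19.1 per Mb. Medians became 544 bp, 94 reads, a fold of 5.5 and a control background of 8.55. At this threshold chromosome 19 had 7.65 peaks per Mb and chromosome 17 5.85. Merging peaks within 500 bp gave 19.6 per Mb and a median width of 418 bp. The share of peaks in runs, 61.4%, was 55.6% after merging, 45.2% with gaps of at most 5 kb and 75.7% with gaps of at most 20 kb. Leaving out the lambda interval took the bins from 22000001 and 23000001 from 44 to 15 and from 46 to 32 peaks, so that other bins, with 42, became the fullest. It kept the chromosome's number of peaks, density, runs and medians within 1.5 times or within their intervals. The density ratio of the lambda interval to the rest, 2.3 and tried under alternatives chosen after seeing the data, was 2.25 after merging, 2.39 at the stricter q and 3.08 among sites with a fold of at least 10, of which only 2 lie in the interval. Start-site and motif shares were not run, since they need hg19 gene models and sequence, not used here. Without replicates, no spread between libraries can be given, and no paired analysis was possible because each group has 1 sample.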

Other observations

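The bin from 44000001 to 45000000, which had the highest median fold of the chromosome 22 bins with 10 or more peaks, was singled out after its values were seen. Of its 14 sites, 8 stood in runs, against 61.4% of all chromosome 22 sites, and the longest run among them held 4. The 3 with a fold of at least 10 were the site from 44668829 to 44669349 described above, a site from 44438056 to 44438679 with 155 reads over 6.30 control reads (fold 11.8), and a single site from 44537279 to 44537706 with 112 reads over 5.0 (fold 10.4). The summit with fewest reads had 23 over 2.70, the lowest number of reads on the chromosome, which was also found outside this bin.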
